A study of Mus musculus with 12 samples.

Results

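The 9 genes described here encode the insulin-like growth factors Igf1 and Igf2, the clearance receptor Igf2r, the binding proteins Igfbp2, Igfbp3, Igfbp4, Igfbp5 and Igfbp6, and the protease Pappa. They are 9 of 18069 genes that the array measures by name, and were followed through every probe that the platform annotation assigns to 1 of these symbols and to no other gene. This gave 13 probes, out of 36227 on the array, of which 21615 carry 1 gene symbol. All 13 probes passed the filter on low values. Igfbp4 and Igfbp5 had 2 probes each and Pappa had 3. A gene is given by its brightest probe, and the others are described beside it. A probe shared by Igfbp3 and Eif5a and another shared by Igf2r and its antisense transcript Airn were not used.

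IGF1 and IGF2 are small secreted hormones that act through the IGF1 receptor, a tyrosine kinase that promotes growth and survival of cells. The IGF2 receptor takes IGF2 up for breakdown and so removes it, while the IGF-binding proteins hold both hormones in a bound form and control how much reaches the receptor. PAPP-A, the product of Pappa, cuts IGFBP4 and IGFBP5 and so frees the bound hormone, and in the ovary these proteins are known for their part in the growth of follicles, where IGF1 raises the response of granulosa cells to FSH.

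Ovaries were taken from lethal yellow (LY) females, whose genotype is Ay/a on a C57BL/6J background, and from black a/a females of the same background. The Ay allele is a deletion that places agouti under a promoter active in many tissues, so LY mice express agouti throughout the body and become obese with age. There were 4 groups of 3 mice: 180-day LY, 180-day black, 90-day LY and 90-day black females. Every mouse, black mice included, had received the GnRH antagonist Antide at 10 microg/g on days 1 and 4 and then equine chorionic gonadotropin at 1 IU per 5 g body weight, and ovaries were removed on day 7. Each of the 12 arrays held the RNA of 1 mouse, and no samples were pooled.

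The values are relative intensities in units in which the median probe of each array lies at 1, and the limit of sensitivity is 0.2 units. Between 80.8% and 83.3% of the values on an array reached that limit. All 13 IGF probes had a value on all 12 arrays. Agouti lay between 95.7 and 111 units in the 6 LY ovaries and between 0.169 and 0.368 units in the 6 black ovaries, which fits the labels. The 8 oocyte and 9 granulosa cell markers measured were at or above the limit on all 12 arrays. Log2 intensities correlated at 0.970 to 0.987 within a group and at 0.918 to 0.938 between the ages. The 2 ages were hybridized in separate sets of arrays, and an effect of age cannot be told apart from one of the set. RNA of a whole ovary is a mixture of cell types, and fewer cells of a type cannot be told apart from less RNA per cell.

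Promoters of 8 of the 9 genes were matched by symbol in the RefSeq sequences of build GRCm38.p6, as 12 windows of 250 bases before to 50 bases after a listed start. Both strands were searched for 6 motifs: the GC box GGGCGG, the E-box CACGTG, the TATA box TATAAA, the cAMP response element TGACGTCA, the SF-1 site CAAGGTCA and the AP-1 site TGANTCA. Matches did not overlap one another. The windows of Igfbp2 and Igfbp4 are shown because these genes had the 2 largest estimates in the direction of higher levels in LY ovaries at 180 days. Those of Igf2r and Igfbp6 are shown because these genes had the lowest p-values between the ages, in opposite directions. The first start listed for Igfbp2 lies at chr1:72824230-72824529 on the plus strand and Igf2r at chr17:12769657-12769956 on the minus strand. Igfbp4 lies at chr11:99040994-99041293 and Igfbp6 at chr15:102143936-102144235, both on the plus strand. Each sequence runs 5′ to 3′, and capitals mark the motif matches.
Igfbp2: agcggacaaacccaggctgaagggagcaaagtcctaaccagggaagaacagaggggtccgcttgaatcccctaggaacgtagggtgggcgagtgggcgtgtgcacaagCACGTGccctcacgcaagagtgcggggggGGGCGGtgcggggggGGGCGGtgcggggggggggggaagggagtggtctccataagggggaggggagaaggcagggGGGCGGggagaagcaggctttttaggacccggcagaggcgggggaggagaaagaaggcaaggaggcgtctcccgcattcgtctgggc
Igfbp4: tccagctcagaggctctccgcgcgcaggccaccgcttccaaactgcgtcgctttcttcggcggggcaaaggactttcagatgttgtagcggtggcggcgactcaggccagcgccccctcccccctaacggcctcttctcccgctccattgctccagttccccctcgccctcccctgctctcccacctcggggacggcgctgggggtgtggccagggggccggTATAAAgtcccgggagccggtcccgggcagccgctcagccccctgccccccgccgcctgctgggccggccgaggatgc
Igf2r: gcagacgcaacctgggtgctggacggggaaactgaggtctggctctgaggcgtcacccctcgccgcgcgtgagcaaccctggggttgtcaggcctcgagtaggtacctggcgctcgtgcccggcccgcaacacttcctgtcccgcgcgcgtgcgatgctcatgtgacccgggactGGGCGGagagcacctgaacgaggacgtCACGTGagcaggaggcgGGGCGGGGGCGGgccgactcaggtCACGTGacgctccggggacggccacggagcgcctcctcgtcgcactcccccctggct
Igfbp6: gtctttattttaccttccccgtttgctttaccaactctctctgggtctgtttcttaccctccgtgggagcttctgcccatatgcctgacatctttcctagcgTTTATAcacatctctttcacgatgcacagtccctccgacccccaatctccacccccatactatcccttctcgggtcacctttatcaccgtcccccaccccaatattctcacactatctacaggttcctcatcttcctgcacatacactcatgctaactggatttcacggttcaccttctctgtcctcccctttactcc

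In the Igfbp2 window the capitals mark 3 GC boxes that begin at -113, -98 and -37 from the start, and an E-box at -142. Igf2r also held 3 GC boxes, at -75, -31 and -25, with E-boxes at -48 and -7. Igfbp4 held a TATA box at -28, and the match in Igfbp6 is a TATA box on the reverse strand at -148. Among the windows not shown, 2 of the 4 starts of Igf2 held GC boxes, while Igf1 and the second start of Igfbp2 held an AP-1 site. No window held the cAMP response element or the SF-1 site, and those of Igfbp3 and Igfbp5 held none of the 6 motifs. Over all 32851 promoter windows of the same length, 35.7% held a GC box, 7.15% an E-box, 13.6% a TATA box, 7.81% an AP-1 site, 1.79% the cAMP response element and 1.56% the SF-1 site.

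**Figure D1:**
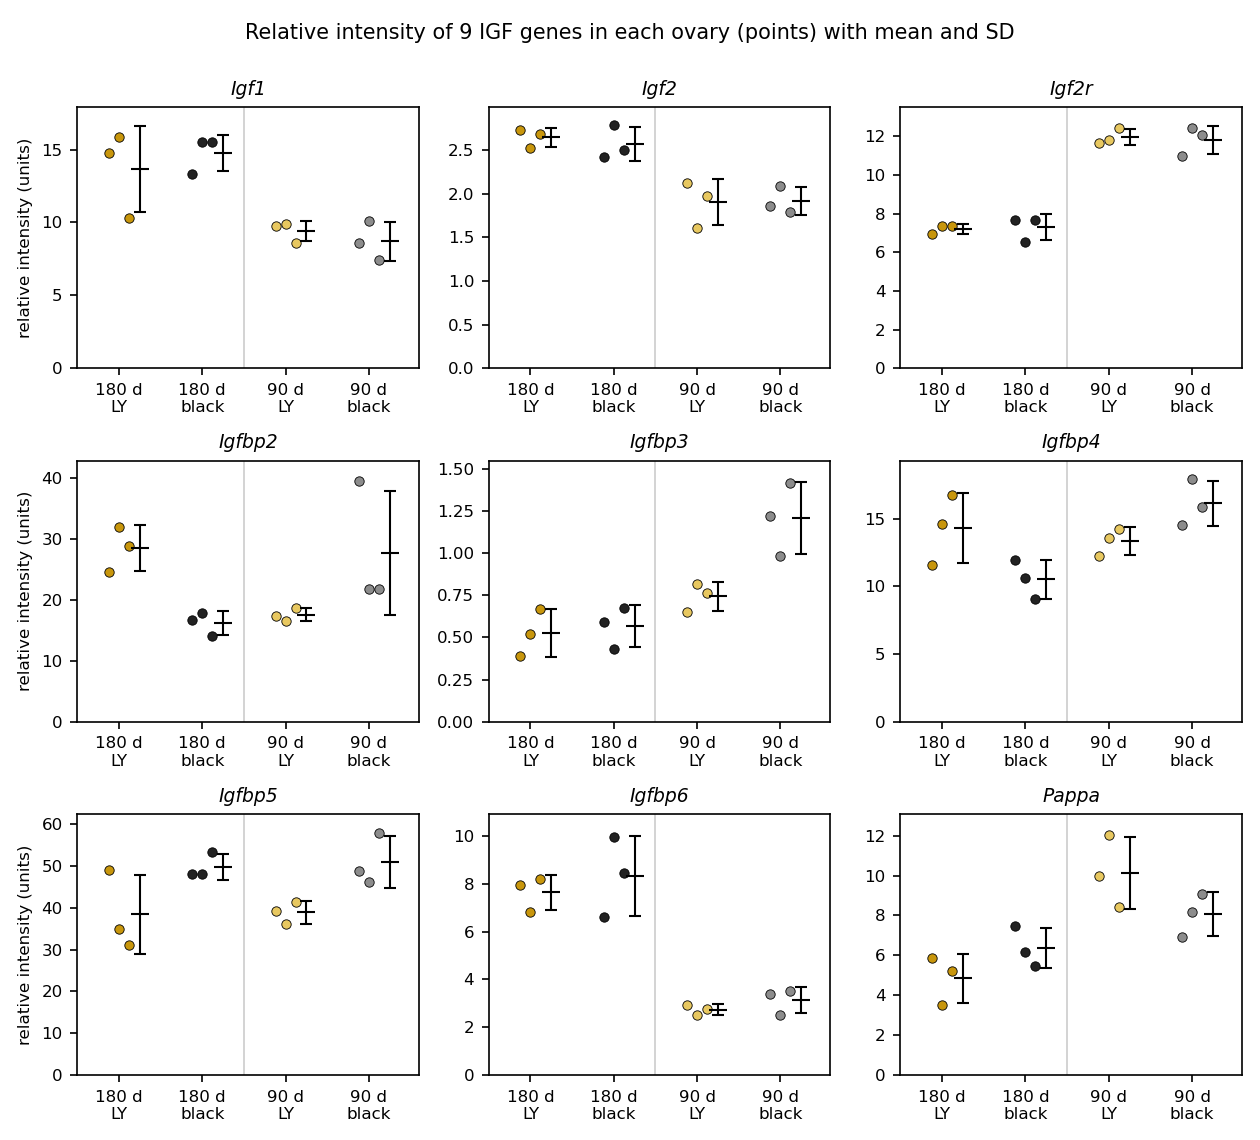
Relative intensity in units (vertical axis, starting at 0) of the brightest probe of each of the 9 genes in every ovary, with the 4 groups on the horizontal axis; points are single mice, and the bar beside them is the mean with its SD (n = 3). Igfbp2 is separated between LY and black ovaries at both ages but in opposite directions, and Igfbp6 lies higher in all 180-day ovaries than in any 90-day ovary.

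None of the 9 genes passed the test between LY and black ovaries at either age. The test was limma over the 31359 probes whose mean reached 0.2 units in a group. A probe was called at a Benjamini-Hochberg adjusted p under 0.05. At 180 days 0 of 9 genes passed, against 0.0446% of all probes, and the lowest adjusted p among them was 0.204, for Igfbp2. At 90 days it was again 0 of 9 against 0.0446%, and the lowest was 0.235, for Igfbp3. At an unadjusted p under 0.05 there were 3 genes at each age, namely Igfbp2, Igfbp4 and Igfbp5 at 180 days and Igfbp2, Igfbp3 and Igfbp5 at 90 days, where 3753 and 4163 of all probes tested did the same. All of these genes encode binding proteins, as do most of the 9, and none of them passed the test after adjustment. The methods' t-test called 0 of the 9 genes at either age after adjustment. Of all probes tested it called 0 at 180 days and 1 at 90 days.

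The levels of single mice separated the genotypes in some genes. Without overlap between the 3 LY and the 3 black ovaries, 1 of 9 genes was higher at 180 days (14.2% of all probes) and 0 were lower (8.36%). At 90 days 4 of 9 genes, Igfbp2, Igfbp3, Igfbp4 and Igfbp5, were lower without overlap (9.56% of all probes) and 0 were higher (6.90%). The median log2 difference over the 9 genes was -0.11 at 180 days and -0.19 at 90 days, beside 0.03 and -0.00 over all probes tested.

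The differences between the ages were larger. In LY mice 6 of 9 genes passed the test between 180 and 90 days, 4 higher (Igf1, Igf2, Igfbp2 and Igfbp6) and 2 lower (Igf2r and Pappa), where 27.9% of all probes were called higher and 19.3% lower. In black mice 7 of 9 passed, 3 higher (Igf1, Igf2 and Igfbp6) and 4 lower (Igf2r, Igfbp2, Igfbp3 and Igfbp4), where 25.9% of all probes were called higher and 20.9% lower. The balance over all probes depended on the scaling, with 8751 higher and 6052 lower in LY mice against 7323 and 7035 under quantile normalization, and 8120 higher and 6544 lower in black mice against 7244 and 7409 without median scaling. Without overlap between the ages, 4 of 9 genes were higher in LY mice (34.1% of all probes) and 2 lower (24.6%), and 3 were higher in black mice (30.7%) and 4 lower (25.2%). Since 47.2% of all probes passed in LY mice and 46.8% in black mice, a call between the ages is not particular to these genes. After quantile normalization of the arrays the 13 probes gave 2 higher and 3 lower in LY mice, in place of 4 and 2. The changes below are therefore given with their direction under that scaling where it differed.

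**Figure D2:**
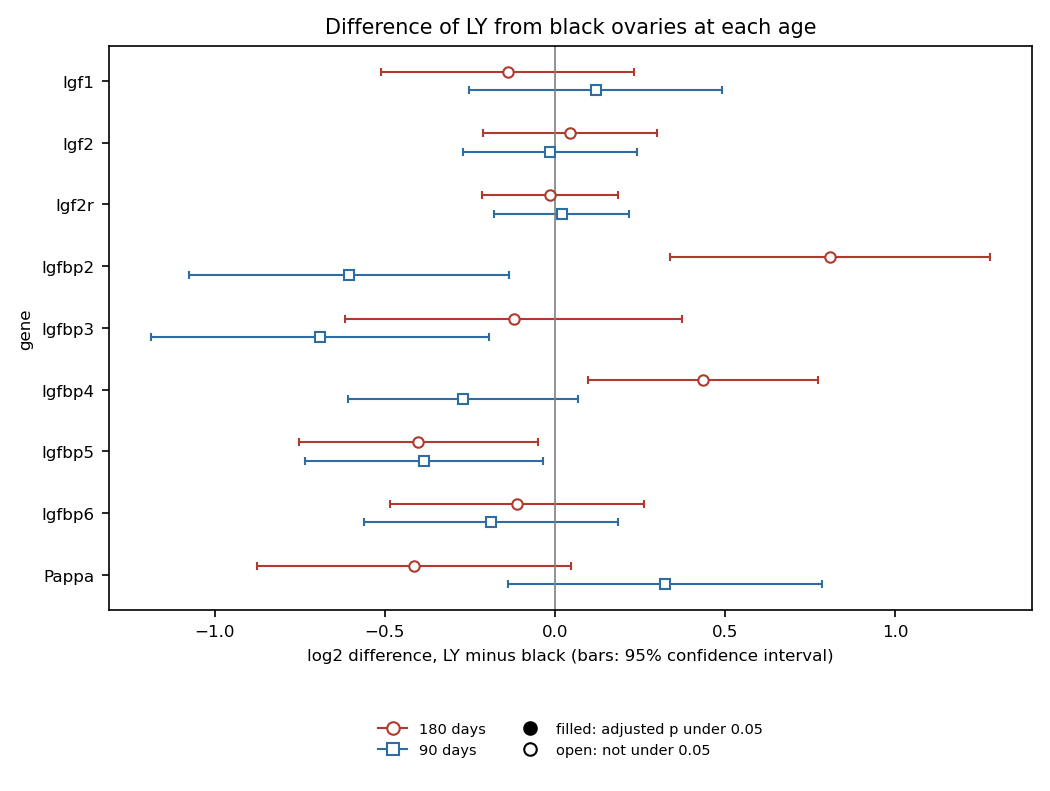
Log2 difference of LY from black ovaries (horizontal axis) for the brightest probe of each gene at 180 days (circles) and 90 days (squares), with 95% confidence intervals from limma. All symbols are open because no adjusted p fell under 0.05, and for Igfbp2 the 2 intervals lie on opposite sides of 0.

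Of the ligands, Igf1, made in the rodent ovary by granulosa cells, showed no difference between the genotypes that passed the test. It had 14.7, 15.9 and 10.3 units in 180-day LY ovaries, against 13.4, 15.5 and 15.5 units in 180-day black ovaries. The 90-day values were 9.76, 9.87 and 8.61 units in LY ovaries, against 8.57, 10.1 and 7.44 units in black ovaries. The genotypes overlapped at both ages, and replicate 3 was the lowest of the 180-day LY ovaries. The log2 difference was -0.14 (95% confidence interval -0.51 to 0.23, adjusted p = 0.787) at 180 days and 0.12 (-0.25 to 0.49, adjusted p = 0.808) at 90 days. Between the ages, Igf1 was 1.43-fold higher at 180 days in LY mice (95% confidence interval 1.10 to 1.85, adjusted p = 0.0281) and 1.71-fold higher in black mice (1.32 to 2.21, adjusted p = 0.00350). All 6 of the 180-day ovaries lay above all 6 of the 90-day ovaries. The call in LY mice was lost without 180-day LY replicate 1 or 2 (adjusted p = 0.0909 and 0.108) and without 90-day LY replicate 2 or 3 (0.0508 and 0.0883). It was also lost under quantile normalization (0.0590) and in the methods' t-test (0.122).

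Igf2, a fetal growth factor expressed from the paternal allele in most tissues, was likewise higher at 180 days in both genotypes. Its values were 2.73, 2.52 and 2.69 units in 180-day LY ovaries, against 2.42, 2.79 and 2.50 units in 180-day black ovaries. At 90 days they were 2.12, 1.61 and 1.98 units in LY ovaries, against 1.86, 2.09 and 1.79 units in black ovaries. LY and black ovaries overlapped at each age, with log2 differences of 0.05 (95% confidence interval -0.21 to 0.30, adjusted p = 0.913) at 180 days and -0.01 (-0.27 to 0.24, adjusted p = 0.976) at 90 days. The 180-day ovaries all lay above the 90-day ovaries, by 1.40-fold in LY mice (1.17 to 1.67, adjusted p = 0.00570) and 1.34-fold in black mice (1.13 to 1.60, adjusted p = 0.0115). Both of these calls held without any 1 of the 12 arrays.

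Igf2r, the receptor that clears IGF2, was lower at 180 days in both genotypes. It had 6.92, 7.36 and 7.36 units in 180-day LY ovaries and 7.68, 6.55 and 7.67 units in 180-day black ovaries. The 90-day values were 11.7, 11.8 and 12.4 units in LY ovaries and 11.0, 12.4 and 12.1 units in black ovaries. The genotypes overlapped at both ages and the ages did not overlap in either genotype. The level at 180 days was 0.602 of that at 90 days in LY mice (95% confidence interval 0.525 to 0.692, adjusted p = 8.72e-05) and 0.617 of it in black mice (0.537 to 0.708, adjusted p = 0.000120). Both calls held without any 1 array. The genotypes differed by -0.01 on the log2 scale at 180 days (-0.21 to 0.18, adjusted p = 0.967) and by 0.02 at 90 days (-0.18 to 0.22, adjusted p = 0.953), the narrowest intervals among the 9 genes.

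Igfbp2, a binding protein that also attaches to the cell surface and matrix, showed the widest difference between the genotypes at 180 days. It had 24.5, 32.0 and 28.9 units in 180-day LY ovaries, against 16.7, 17.9 and 14.1 units in 180-day black ovaries. In 90-day mice it had 17.4, 16.5 and 18.6 units in LY ovaries, against 39.5, 21.8 and 21.8 units in black ovaries. Every LY ovary was above every black ovary at 180 days, and every LY ovary was below every black ovary at 90 days. The means were 28.4 ± 3.76 units in LY ovaries and 16.2 ± 1.96 units in black ovaries at 180 days, and 17.5 ± 1.06 units in LY ovaries and 27.7 ± 10.2 units in black ovaries at 90 days (SD, n = 3 each). Replicate 1 of the 90-day black ovaries lay far above the other two.

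In the fit, Igfbp2 was 1.75-fold higher in LY ovaries at 180 days (95% confidence interval 1.26 to 2.43), which did not pass the test (adjusted p = 0.204). At 90 days the level in LY ovaries was 0.658 of that in black ovaries (0.475 to 0.912, adjusted p = 0.266). Without 90-day black replicate 1 the log2 difference at 90 days was -0.32 in place of -0.60, and the 2 remaining black ovaries still lay above all 3 LY ovaries. The test of the change itself, the difference at 180 days minus that at 90 days, gave 1.41 on the log2 scale (SE 0.30, 95% confidence interval 0.75 to 2.08, unadjusted p = 0.000748, adjusted p = 0.114). No probe of 31359 passed in this comparison (0.00%), while 3799 had an unadjusted p under 0.05, and Igfbp2 ranked 206 among all probes by p. With a filter at 1 unit or with an intensity trend in limma the adjusted p was 0.0358 and 0.0374, and under the other alternatives it ran from 0.0770 to 0.316. Leaving out each array in turn gave 1.13 to 1.56, with adjusted p between 0.104 and 0.276.

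**Figure D3:**
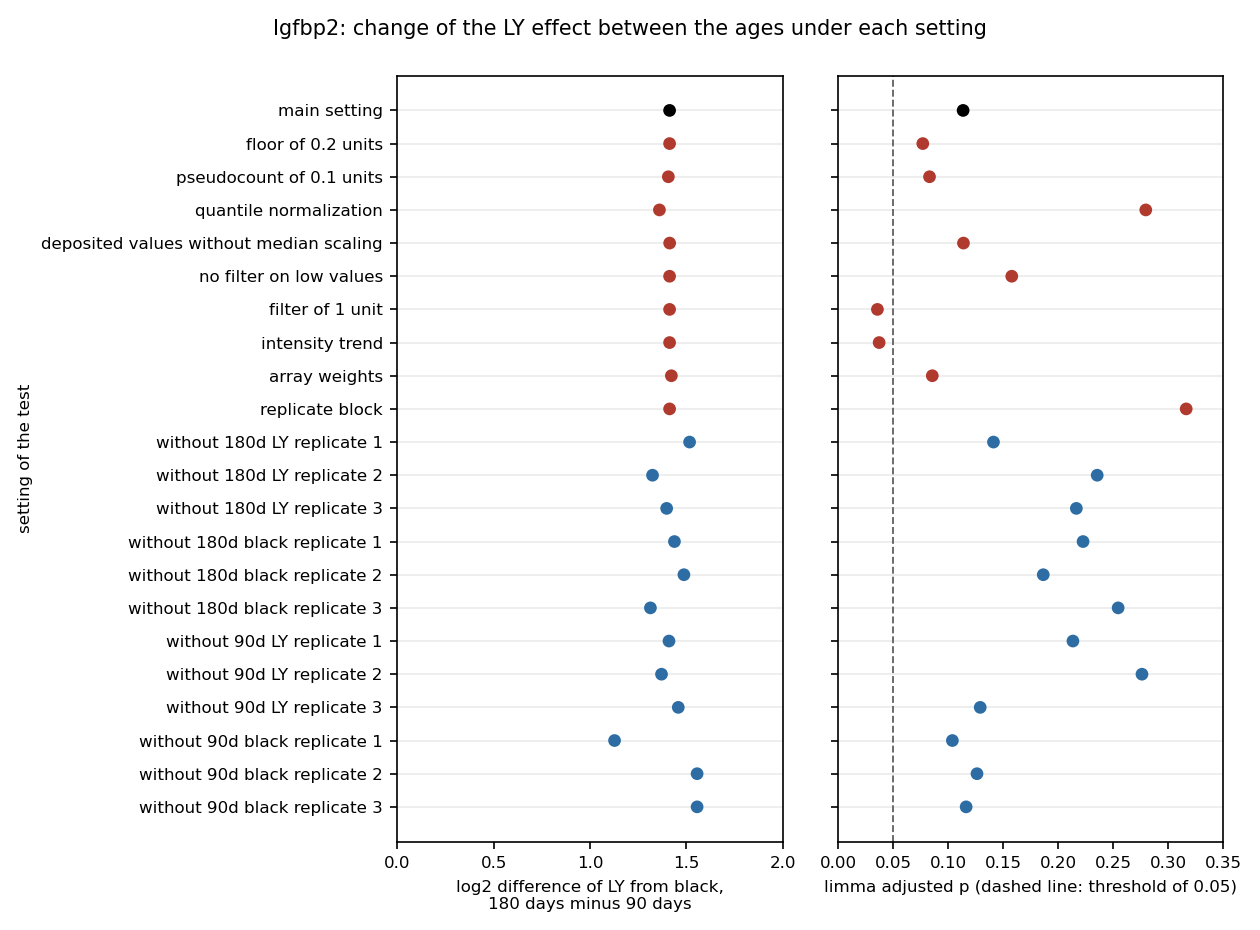
The log2 difference of LY from black ovaries in Igfbp2 at 180 days minus that at 90 days (left) and its limma adjusted p (right) under the main setting (black), 9 other settings of the processing (red) and with each array left out (blue). The estimate lies between 1.13 and 1.56 throughout, while the adjusted p falls under the threshold of 0.05 with the filter at 1 unit and with the intensity trend and in no other setting plotted.

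Between the ages Igfbp2 moved in opposite directions in the 2 genotypes. It was 1.62-fold higher at 180 days than at 90 days in LY mice (95% confidence interval 1.17 to 2.24, adjusted p = 0.0209), and at 0.607 of the 90-day level in black mice (0.438 to 0.842, adjusted p = 0.0177). The call in LY mice was lost without 180-day LY replicate 2 or 3 (adjusted p = 0.0733 and 0.0522), without 90-day LY replicate 2 (0.0636) and under quantile normalization (0.217). The call in black mice was lost without 180-day black replicate 3 (0.0654) and in the methods' t-test (0.148). Leaving out 90-day black replicate 1 gave a log2 difference of -0.43 in black mice, in place of -0.72.

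Markers of several cell types were separated by genotype beside Igfbp2 and, at 90 days, beside Igfbp3, Igfbp4 and Igfbp5. At 180 days the summed level of 9 of 10 listed granulosa markers was 181 to 243 units in LY ovaries and 256 to 336 units in black ovaries, and that of 8 of 8 oocyte markers was 37.7 to 52.9 units in LY ovaries and 55.8 to 72.2 units in black ovaries. At 90 days 5 of 6 surface epithelium markers summed to 7.86 to 8.93 units in LY ovaries and 11.5 to 15.0 units in black ovaries, and 3 of 4 luteal markers to 34.0 to 46.1 units in LY ovaries and 59.0 to 93.5 units in black ovaries. The 3 oviduct markers summed to 3.16 to 3.41 units in LY ovaries and 4.09 to 6.69 units in black ovaries at 90 days. None of these 5 lists held a gene that passed the test between the genotypes at that age. Of all probes, 0.0446% passed at each age. All their measured markers reached 0.2 units on all 12 arrays, except Upk3b of the surface epithelium on 8 and Foxj1 of the oviduct on 2. The part of these cells in the results for the binding proteins was not tested.

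Igfbp4, the binding protein that PAPP-A cuts most readily, was on average higher in LY ovaries at 180 days and lower at 90 days, in neither case past the threshold. It had 11.6, 14.6 and 16.8 units in 180-day LY ovaries, against 11.9, 10.6 and 9.03 units in 180-day black ovaries. The 90-day values were 12.2, 13.6 and 14.3 units in LY ovaries, against 14.6, 17.9 and 15.9 units in black ovaries. At 180 days LY replicate 1 lay just below black replicate 1, so the groups overlapped, whereas at 90 days every LY ovary was below every black ovary. The ratio of LY to black was 1.35 at 180 days (95% confidence interval 1.07 to 1.71, adjusted p = 0.307) and 0.829 at 90 days (0.657 to 1.05, adjusted p = 0.482). The change of the difference between the ages was 0.71 on the log2 scale (0.23 to 1.18, adjusted p = 0.220). At 90 days the log2 difference was -0.27, and it shrank to -0.18 under quantile normalization and to -0.15 with the mean of both probes. Within black mice the level at 180 days was 0.651 of that at 90 days (0.515 to 0.822, adjusted p = 0.00687), and within LY mice the log2 difference was 0.09 (-0.25 to 0.42, adjusted p = 0.671). The second probe, 56012, was dim at 0.300 to 0.529 units and gave no call in any comparison, with log2 differences between the ages of 0.33 in LY mice and 0.09 in black mice. With the mean of both probes the call in black mice was lost (-0.26, adjusted p = 0.121).

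Igfbp3, the main carrier of IGFs in blood, lay near the limit of sensitivity and was lower in LY ovaries at 90 days without passing the test. It had 0.389, 0.519 and 0.672 units in 180-day LY ovaries, against 0.594, 0.434 and 0.678 units in 180-day black ovaries. At 90 days it had 0.651, 0.816 and 0.764 units in LY ovaries, against 1.22, 0.986 and 1.42 units in black ovaries. The 180-day groups overlapped and the 90-day groups did not. The ratio of LY to black was 0.919 at 180 days (95% confidence interval 0.652 to 1.30, adjusted p = 0.869) and 0.619 at 90 days (0.439 to 0.874, adjusted p = 0.235), and these differences were not shown to differ from each other (log2 0.57, -0.13 to 1.27, adjusted p = 0.512, and 0.38 without 180-day LY replicate 3). Igfbp3 fell with age in black mice, to 0.467 of the 90-day level at 180 days (0.331 to 0.659, adjusted p = 0.00241). In LY mice the ratio was 0.694 (0.492 to 0.979, adjusted p = 0.0763), which passed the test without 180-day LY replicate 3 (0.0265), with array weights (0.0216) or with a filter at 1 unit (0.0425), while without 180-day LY replicate 1 the log2 difference was -0.33 in place of -0.53 (0.264).

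Igfbp5, a binding protein held in the extracellular matrix and also a substrate of PAPP-A, had lower means in LY ovaries at both ages, without passing the test. Its values were 49.1, 35.0 and 31.1 units in 180-day LY ovaries, against 48.0, 48.0 and 53.5 units in 180-day black ovaries. At 90 days they were 39.2, 36.1 and 41.4 units in LY ovaries, against 48.8, 46.1 and 58.0 units in black ovaries. Replicate 1 of the 180-day LY ovaries stood within the range of the black ovaries, and the other 5 LY ovaries lay below all 6 black ovaries. The ratio of LY to black was 0.757 at 180 days (95% confidence interval 0.594 to 0.966, adjusted p = 0.361) and 0.766 at 90 days (0.600 to 0.977, adjusted p = 0.335). Averaged over both ages it was 0.762 (0.641 to 0.904), with an adjusted p of 0.201, where 0.00638% of all probes passed and 0 of the 9 genes did. Without 180-day LY replicate 1 the log2 difference at 180 days was -0.59 in place of -0.40, and without 180-day LY replicate 3 it was -0.26, in neither case with a call (adjusted p = 0.149 and 0.697). Under quantile normalization the log2 difference was -0.16 in place of -0.38 at 90 days (adjusted p = 0.632) and -0.25 in place of -0.39 in the average (0.285).

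No difference between the ages was called in Igfbp5 on the median scale, with log2 differences of -0.04 in LY mice (adjusted p = 0.840) and -0.03 in black mice (0.903). Under quantile normalization the 180-day level was called lower, by -0.92 in LY mice (adjusted p = 0.000176) and by -0.74 in black mice (0.000685). The size of the difference and its call therefore depend on the scaling of the arrays. The second probe, 303017, was dim at 0.319 to 0.521 units and was also lower in LY ovaries, with log2 differences of -0.23 at 180 days, without overlap, and -0.20 at 90 days (adjusted p = 0.555 and 0.587).

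Igfbp6, which binds IGF2 in preference to IGF1, had the largest change with age among the 9 genes. It had 7.96, 6.80 and 8.19 units in 180-day LY ovaries, against 6.62, 9.97 and 8.45 units in 180-day black ovaries. At 90 days it had 2.95, 2.50 and 2.78 units in LY ovaries, against 3.40, 2.53 and 3.51 units in black ovaries. All 6 of the 180-day ovaries lay above all 6 of the 90-day ovaries, and the genotypes overlapped at both ages. It was 2.79-fold higher at 180 days in LY mice (95% confidence interval 2.15 to 3.61, adjusted p = 5.28e-05) and 2.64-fold higher in black mice (2.04 to 3.42, adjusted p = 7.54e-05). Both calls held without any 1 array. The log2 difference of LY from black was -0.11 at 180 days (-0.48 to 0.26, adjusted p = 0.839) and -0.19 at 90 days (-0.56 to 0.19, adjusted p = 0.678).

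**Figure D4:**
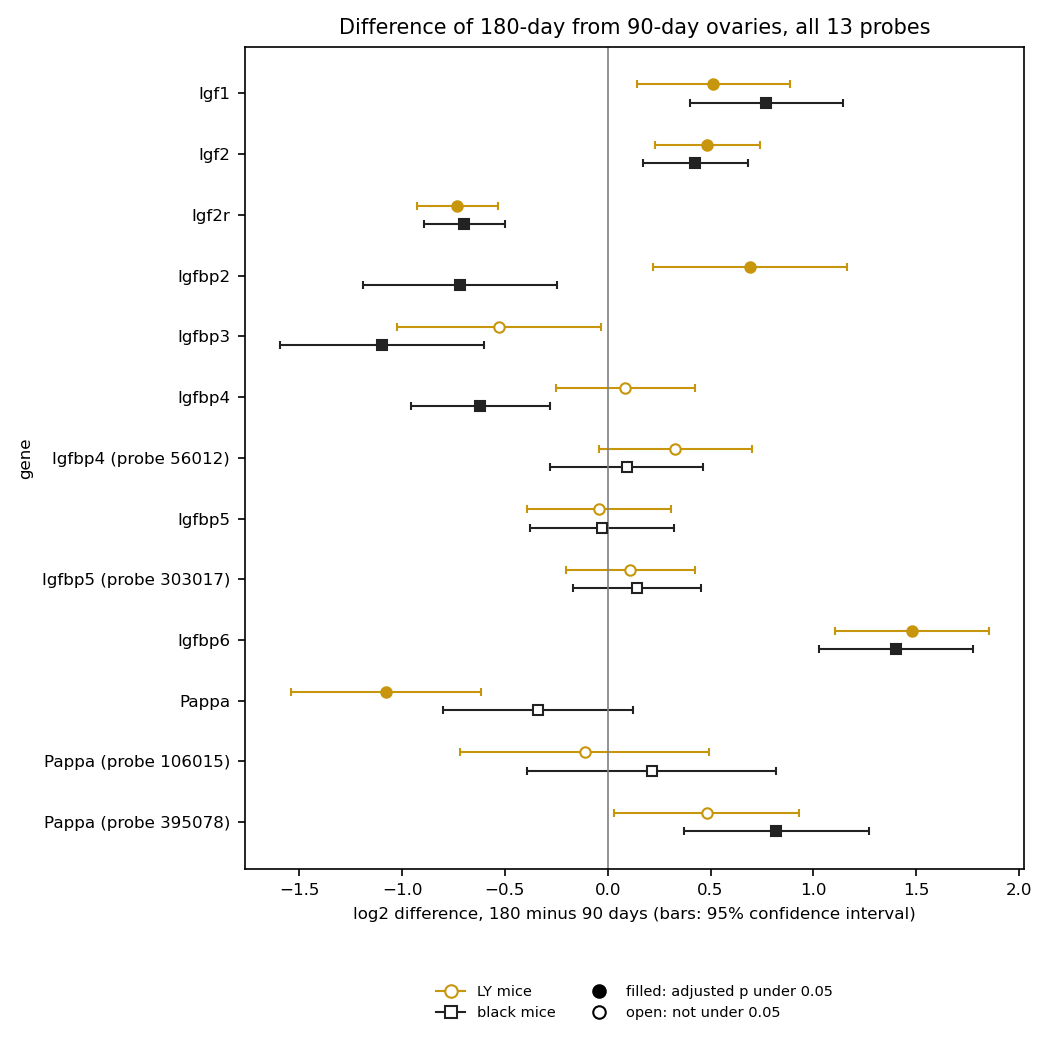
Log2 difference of 180-day from 90-day ovaries (horizontal axis) for all 13 probes in LY mice (circles) and black mice (squares), with 95% confidence intervals from limma; filled symbols have an adjusted p under 0.05, and probe numbers mark the dimmer probes of a gene. Igf1, Igf2 and Igfbp6 lie to the right and Igf2r to the left in both genotypes, Igfbp2 lies on opposite sides, and the 2 brighter probes of Pappa point in opposite directions.

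Pappa, known in the mouse ovary from granulosa cells of healthy follicles, was measured by 3 probes that did not move together. The brightest, 262008, had 5.87, 3.50 and 5.21 units in 180-day LY ovaries, against 7.48, 6.16 and 5.48 units in 180-day black ovaries. The 90-day values were 9.96, 12.03 and 8.43 units in LY ovaries, against 6.92, 8.17 and 9.09 units in black ovaries. LY and black ovaries overlapped at both ages, and LY ovaries were the lowest group at 180 days and the highest at 90 days. The log2 difference of LY from black was -0.41 at 180 days (95% confidence interval -0.88 to 0.05, adjusted p = 0.466) and 0.32 at 90 days (-0.14 to 0.79, adjusted p = 0.542), and the change between the ages was -0.74 (-1.39 to -0.09, adjusted p = 0.348). Without 180-day LY replicate 2 the 180-day difference was -0.19, and without 90-day LY replicate 2 the 90-day difference was 0.19. With the mean of the 3 probes the 90-day difference was 0.09 and the change -0.47. On this probe the 180-day level was 0.473 of the 90-day level in LY mice (0.343 to 0.651, adjusted p = 0.00169), and 0.789 of it in black mice (0.573 to 1.09, adjusted p = 0.205).

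Probe 395078 of Pappa, dim at 0.437 to 1.23 units, went the other way with age. It had 0.851, 0.539 and 0.815 units in 180-day LY ovaries, against 1.06, 1.23 and 0.876 units in 180-day black ovaries, and was lower in LY ovaries without overlap (log2 -0.54, adjusted p = 0.336). At 90 days it had 0.590, 0.532 and 0.437 units in LY ovaries, against 0.663, 0.499 and 0.631 units in black ovaries, with overlap and a log2 difference of -0.20 (adjusted p = 0.718), of the opposite sign to the brightest probe. It was 1.76-fold higher at 180 days than at 90 days in black mice (95% confidence interval 1.29 to 2.41, adjusted p = 0.00717), with a log2 difference of 0.48 in LY mice (0.03 to 0.93, adjusted p = 0.0741). The third probe, 106015, lay between 0.181 and 0.394 units and gave no call. With the mean of the 3 probes the call of Pappa in LY mice was lost (-0.24, adjusted p = 0.344), and in black mice the estimate turned to 0.23 (adjusted p = 0.359). No direction with age, or between the genotypes at 90 days, is therefore given for Pappa as a gene.

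Several marker lists were separated by age beside these differences, and the lists not named below overlapped between the ages in both genotypes. Of all probes, 27.9% were called higher and 19.3% lower in LY mice, and 25.9% higher and 20.9% lower in black mice. A marker call between the ages is therefore not particular to a list. In LY mice the granulosa sum was 181 to 243 units at 180 days and 279 to 410 units at 90 days, with 5 of 9 markers called lower, and the oocyte sum was 37.7 to 52.9 units at 180 days and 57.9 to 59.9 units at 90 days, with 4 of 8 called lower. The sum of 7 stroma markers was 358 to 411 units at 180 days and 313 to 342 units at 90 days in LY mice, with 4 called higher and 1 lower, and that of the oviduct markers was 1.98 to 2.20 and 3.16 to 3.41 units, with 1 of 3 called lower. In black mice the granulosa sum overlapped, at 256 to 336 units at 180 days and 285 to 379 units at 90 days, with 1 of 9 called lower. The lists without overlap in black mice were 4 of 7 leukocyte markers, with 35.1 to 55.6 units at 180 days and 18.8 to 30.0 units at 90 days and 2 called higher, and 5 endothelium markers, with 19.2 to 20.96 and 21.4 to 25.3 units and 1 called in each direction. Most of the leukocyte sum was Lyz2, with means of 42.4 units in 180-day and 22.9 units in 90-day black ovaries. Adgre1 and Cd3e of that list reached 0.2 units on 4 and 2 arrays, and Cdh5 of the endothelium on 3. The part of these cells in the age differences of Igf1, Igf2, Igf2r, the binding proteins and Pappa was not tested.

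The groups can be ordered by their mean level on the brightest probe. Igfbp2 was highest in 180-day LY ovaries, then in 90-day black, 90-day LY and 180-day black ovaries, with a gap between the second and the third and overlap in the other neighbouring pairs. Igfbp4 was highest in 90-day black ovaries, then in 180-day LY, 90-day LY and 180-day black ovaries, and only the last pair did not overlap. Igfbp3 followed the order 90-day black, 90-day LY, 180-day black and 180-day LY, with a gap between the first pair. Igfbp5 followed the order 90-day black, 180-day black, 90-day LY and 180-day LY, with a gap between the black and the 90-day LY ovaries. For Igf1, Igf2, Igf2r and Igfbp6 the groups of 1 age stood next to each other and overlapped, and the gap lay between the ages. In Pappa all neighbouring groups overlapped.

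Other genes of the pathway gave no call between the genotypes either. Of 32 listed receptors, signalling proteins, related binding proteins, proteases, inhibitors and RNA partners, 26 had a probe with that symbol alone and 24 passed the filter on low values. Irs4 and Igfals did not pass it. Of these 24, 0 passed the test between LY and black ovaries at 180 days, at 90 days, in the average or in the change between the ages. In the same order, 3, 3, 5 and 3 had an unadjusted p under 0.05 in limma. Of all 31359 probes tested, 3753, 4163, 4074 and 3799 did the same. Their median log2 difference was -0.09 at 180 days and -0.06 at 90 days.

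Igf1r, the signalling receptor of both ligands, had 20.1, 15.4 and 19.6 units in 180-day LY ovaries, against 24.8, 23.7 and 23.6 units in 180-day black ovaries on its brighter probe. At 90 days the values were 10.5 and 9.80 units in LY ovaries and 11.2 and 11.4 units in black ovaries, since replicate 1 of each group had no value and was left out of the fit. LY ovaries lay below black ovaries at 180 days without overlap (log2 -0.40, 95% confidence interval -0.66 to -0.14), short of the threshold (adjusted p = 0.252). With age Igf1r rose 1.80-fold in LY mice (adjusted p = 0.000717) and 2.13-fold in black mice (adjusted p = 0.000170). Its second probe, 237045, overlapped between the genotypes at 180 days (log2 -0.12, adjusted p = 0.841) and was lower without overlap in LY ovaries at 90 days (-0.44, adjusted p = 0.344). It gave log2 differences with age of 0.34 in LY mice and 0.02 in black mice (adjusted p = 0.158 and 0.949). Insr, the insulin receptor, fell with age on its brighter probe to 0.462 of the 90-day level in LY mice (adjusted p = 6.26e-05) and 0.633 of it in black mice (adjusted p = 0.00197). The dimmer Insr probe, 150009, gave log2 differences of -0.21 and -0.27 without a call (adjusted p = 0.232 and 0.136).

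Stc2, a stanniocalcin that inhibits PAPP-A, had the lowest p-value of the listed genes at 90 days. It had 2.12, 2.67 and 2.93 units in 180-day LY ovaries, against 2.31, 2.15 and 2.52 units in 180-day black ovaries. At 90 days it had 1.87, 1.55 and 1.78 units in LY ovaries, against 3.10, 2.55 and 2.57 units in black ovaries. The 180-day groups overlapped and the 90-day LY ovaries all lay below the black ones, at 0.633 of their level (adjusted p = 0.105). Its change of the difference between the ages was 0.80 on the log2 scale (95% confidence interval 0.37 to 1.22, adjusted p = 0.153). Prss23, a secreted serine protease, was at 0.674 of the black level in 180-day LY ovaries on its brighter probe (adjusted p = 0.151). Neither this probe nor the dimmer one, 117105, overlapped between the genotypes at 180 days. At 90 days the brighter probe was also lower in LY ovaries without overlap, with 12.6 to 15.7 units against 16.8 to 19.2 units in black ovaries. The dimmer probe overlapped at 90 days, with 5.26 to 6.90 units in LY ovaries and 5.38 to 8.28 units in black ovaries.

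Between the ages 12 of the 24 listed genes passed in LY mice and 11 in black mice, against 47.2% and 46.8% of all probes. In LY mice Igf1r, Akt1, Foxo1 and Stc2 were higher at 180 days, and Insr, Shc1, Grb10, Pik3ca, Foxo3, Mmp2, H19 and Igf2bp1 were lower. In black mice Igf1r, Pik3r1, Foxo1 and Prss23 were higher, and Insr, Shc1, Grb10, Pik3ca, Mmp2, H19 and Igf2bp1 were lower. These calls are those of the brightest probe of each gene. The dimmer Grb10 probe, 349111, was called higher in LY mice (log2 0.35, adjusted p = 0.0460) and gave 0.17 in black mice (0.320). No direction with age is therefore given for Grb10 as a gene. The dimmer Prss23 probe, 117105, had means of 6.81 units in 180-day and 6.76 units in 90-day black ovaries. Akt1, a kinase downstream of the IGF1 receptor, rose 1.45-fold in LY mice (adjusted p = 0.000333), and Foxo1, a transcription factor that AKT keeps inactive, rose 1.52-fold in LY mice (0.0147) and 1.73-fold in black mice (0.00359). Quantile normalization was applied to this list of genes only after seeing the data. Under it Foxo1 lost its call in LY mice (0.630) and in black mice (0.276), Pik3r1 (0.0751) and H19 (0.0847) lost theirs in black mice, and the other calls held. H19, an imprinted RNA that neighbours Igf2, was at 0.762 of the 90-day level in LY mice (0.00997) and 0.803 of it in black mice (0.0276). Irs1, Igfbp1 and Igfbp7 passed in neither genotype, though Irs1 was called lower at 180 days in both under quantile normalization (log2 -0.98 in LY mice and -0.65 in black mice, in place of -0.17 and 0.14). Htra1, a secreted serine protease, likewise turned to a call of lower under that scaling, with -0.83 in place of 0.05 in LY mice (adjusted p = 4.01e-05) and -0.69 in place of 0.07 in black mice (0.000125). Igfbp7 had means of 208 and 206 units in 180-day LY and black ovaries and 178 and 200 units in 90-day LY and black ovaries.

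The genes whose pattern was most like that of a member were sought over the 12 arrays, after subtracting the mean of each age, among 16363 probes at or above 0.2 units on every array. For Igfbp2 the closest were Cbr2 (Pearson r = 0.951), Zfp809 (0.942) and Pex16 (0.938). Igfbp4 was closest to Fbxl8 (0.950), Rpl31-ps12 (0.947) and Nat8l (0.929), and Igfbp5 to Ctnna2 (0.966), Slc6a7 (0.917) and Cpxm2 (0.909). The leading gene was Zfp599 for Igf1 (0.899), Emid1 for Igf2 (0.867), Prss52 for Igf2r (0.921), Arhgap39 for Igfbp3 (0.921), Tbc1d10a for Igfbp6 (0.910) and Cfap20 for Pappa (0.918). Among the members themselves, each on its brightest probe, r ran from -0.74, for Igfbp2 with Pappa, to 0.64, for Igfbp2 with Igfbp4. The values for Pappa are those of probe 262008 alone. These are descriptions over 12 arrays that share their scaling and the 4 groups.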

How the data were processed

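RNA of 12 ovaries, 1 mouse each, was hybridized to one-colour CodeLink arrays. Per the study's methods, the authors aligned the scans in GenePix Pro, took the background off in the CodeLink software and set every slide to its 50th percentile in GeneSpring 7.0. The deposited intensity values are relative units, whose array medians ran from 1.00 to 1.04. The methods also name a scaling by gene, but the deposited probes keep levels of their own.

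Here every array was brought to a median of 1, with a floor of 0.01 units before log2. In limma 3.58.1 (R 4.3.3) a model with 1 mean per group was fitted over the 12 arrays, leaving 8 residual degrees of freedom and adding 2.46 prior ones. It covered 31359 probes, those whose mean reached 0.2 units in some group, and p-values were adjusted over all of these by Benjamini-Hochberg. Of the array's probes 681 have several gene symbols and 13931 none. A difference is the first group named minus the second. Groups were called free of overlap where all 3 arrays lay on one side of the other 3, over probes with values on all 6. Replicates are separate mice.

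The genes named are the 9 members with every probe, those of a list of IGF pathway genes, and the genes most like a member. The members and lists were chosen with earlier results of these data known. Alternatives were a floor of 0.2 units, a pseudocount of 0.1, quantile normalization, no median scaling, no filter, a filter of 1 unit, an intensity trend, array weights, a replicate block, 1 age alone, the methods' t-test, the mean of a gene's probes, and leaving out each array. The fit was tested on simulated data.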

Additional observations from a re-analysis of the deposited data

Results flagged for a closer look

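In Igfbp2 the difference of LY from black ovaries ran in opposite directions at the 2 ages. All 3 LY ovaries lay above all 3 black ovaries at 180 days, and all 3 LY ovaries lay below all 3 black ovaries at 90 days. The log2 difference was 0.81 at 180 days and -0.60 at 90 days, and the test of the change gave 1.41 (95% confidence interval 0.75 to 2.08). It did not pass limma's test over all probes (adjusted p = 0.114). Without 90-day black replicate 1, which had 39.5 units where the other 90-day black ovaries had 21.8, the change was 1.13 (adjusted p = 0.104). Each age is a set of arrays of its own, and the part of the sets in this change was not tested. The other 8 genes met none of the conditions that single out a result for a closer look. In Igfbp4 the change was 0.71 (adjusted p = 0.220) and in the brightest Pappa probe -0.74 (adjusted p = 0.348).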

How the results depend on the processing

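No IGF probe was called between LY and black ovaries at either age or in their average under any alternative. In the change of the difference between the ages, 1 IGF probe, that of Igfbp2, was called with a filter of 1 unit and with an intensity trend. Between the ages 4 to 6 of 13 IGF probes were called in LY mice and 7 to 8 in black mice when single arrays were left out. With a floor of 0.2 units 52 probes of the array were called at 180 days, 132 at 90 days, 18 in the change and 56 in the average, in place of 14, 14, 0 and 2. In the same order, a pseudocount of 0.1 gave 33, 25, 21 and 14, a filter of 1 unit 111, 243, 223 and 130, an intensity trend 111, 200, 198 and 95, and array weights 163, 3, 2 and 10. Quantile normalization gave 2 in the change, and 17 higher and 4 lower at 180 days in place of 13 and 1. No filter gave 1 at 180 days, 4 at 90 days and 1 in the average. A fit on 1 age alone gave 2 at each age, and the methods' t-test 0 at 180 days and 1 at 90 days (4202 and 2798 at an unadjusted p under 0.05). Leaving out 1 array gave 1 to 21 at 180 days, 1 to 66 at 90 days, 0 to 35 in the change and 1 to 6 in the average, and 12435 to 15111 and 12531 to 14832 between the ages in LY and black mice. The causes were not tested.

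The main fit did not pair the mice by replicate number. Same-numbered ovaries correlated in their deviations at -0.00, -0.07 and -0.06 at 180 days, where 0 of 3 LY ovaries matched their own number best. At 90 days the correlations were 0.15, 0.07 and 0.05, and 2 of 3 LY ovaries matched their own number best. These values do not settle whether the numbers pair the mice at 90 days. With the replicate block 2 probes were called at 180 days, 1 at 90 days, 0 in the change and 1 in the average, with 0 IGF probes in each.

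Differences near 0 turned sign. Under quantile normalization Igf2 at 90 days was 0.0109 and Igfbp4 between the ages in LY mice -0.0331. With the mean of all probes Igfbp5 between the ages was 0.0327 in LY mice and 0.0578 in black mice. Pappa between the ages in black mice, which was not near 0, turned from -0.34 to 0.23 with the mean of its probes, which differ in direction. Leaving out 1 array gave, at 180 days, -0.26 to 0.0524 for Igf1, -0.0906 to 0.0242 for Igf2r, -0.31 to 0.0792 for Igfbp3 and -0.27 to 0.0277 for Igfbp6. It gave, at 90 days, -0.10 to 0.10 for Igf2 and -0.0314 to 0.0553 for Igf2r. Between the ages it gave -0.24 to 0.0942 for Igfbp5 and -0.0366 to 0.23 for Igfbp4 in LY mice, and -0.10 to 0.0694 for Igfbp5 in black mice. None of these differences near 0 passed the test when 1 array was left out. Igfbp3, the dimmer probes of Igfbp4 and Igfbp5, and probes 395078 and 106015 of Pappa lay nearest to the limit of sensitivity of 0.2 units. With 3 arrays a group the precision of every gene is limited.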
